A study of Homo sapiens with 3 samples.

Results

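The genes described here are 36 genes of glucose use and of the response to low oxygen: glucose carriers and hexokinases, the enzymes of glycolysis and their regulators, and targets of hypoxia-inducible factor (HIF). They were listed by symbol, and each was read by its brightest probe set among those that the platform annotation gives to that symbol alone. Of the 36, 33 had such a probe set, and all 33 passed the filter on dim signals, out of 11783 genes that did so in all. SLC16A1, SLC16A3 and CA9 lacked a probe set annotated to them alone and were not analysed here. The cells were U2OS, a human osteosarcoma line, grown in DMEM with serum. They carried a retrovirus for Set8b_deltaPIP2 (called stable Set8b here), for wt-Set8b, or the empty pMSCV-vector, and RNA was taken on day 5. Set8b is the enzyme that monomethylates lysine 20 of histone H4, and the stable form escapes the CRL4-Cdt2 ubiquitin ligase. All groups share the cell line and the viral backbone. The labels name no clones or promoter for the transgene, and each group is 1 array.

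Glycolysis turns glucose into pyruvate in the cytosol. Glucose enters through facilitative carriers and is trapped by hexokinase, phosphofructokinase sets the pace under the control of fructose 2,6-bisphosphate, and lactate dehydrogenase turns pyruvate into lactate when it is not burned in mitochondria. HIF is a pair of proteins, an oxygen-sensitive alpha subunit and ARNT. When oxygen is low, the prolyl hydroxylases of the EGLN family stop marking the alpha subunit for destruction by VHL, and HIF binds the core letters ACGTG or GCGTG near many glycolysis genes and near genes of vessel growth, mitophagy and collagen maturation. Many tumour lines, osteosarcoma lines among them, use glycolysis heavily even in air.

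The promoter letters are shown because the HIF core is what many of these genes are known to share, so a reader can set them beside the expression values. RefSeq promoters (GRCh38.p14) were found for 30 of the 36 genes, and where several starts were listed the start listed at the top was used. The 250 bases before the start were searched on both strands for the 2 core forms named above. The E-box CACGTG reads as the former of these on either strand and so counts as 2 matches. In the windows below, capitals mark these letters, written 5′ to 3′ along the gene, with matches on the other strand marked as well. HK2 and P4HA1 were at least 2-fold higher with stable Set8b, SLC2A1 lay just under 2-fold, PGK1 and LDHA differed little, ENO2 was lower, and BNIP3 and ANKRD37 are HIF targets that went opposite ways.
HK2 (chr2:74833877-74834126, plus strand): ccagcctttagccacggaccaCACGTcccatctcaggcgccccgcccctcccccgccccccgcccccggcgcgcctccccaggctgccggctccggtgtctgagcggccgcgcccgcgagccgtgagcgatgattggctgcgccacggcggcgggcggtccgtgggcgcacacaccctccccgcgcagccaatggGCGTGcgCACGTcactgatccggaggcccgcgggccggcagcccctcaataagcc
P4HA1 (chr10:73096867-73097116, minus strand): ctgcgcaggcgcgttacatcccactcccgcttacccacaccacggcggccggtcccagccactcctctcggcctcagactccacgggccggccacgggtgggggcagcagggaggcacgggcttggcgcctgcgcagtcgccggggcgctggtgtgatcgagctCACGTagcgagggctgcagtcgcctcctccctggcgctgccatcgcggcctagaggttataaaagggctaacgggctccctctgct
SLC2A1 (chr1:42958869-42959118, minus strand): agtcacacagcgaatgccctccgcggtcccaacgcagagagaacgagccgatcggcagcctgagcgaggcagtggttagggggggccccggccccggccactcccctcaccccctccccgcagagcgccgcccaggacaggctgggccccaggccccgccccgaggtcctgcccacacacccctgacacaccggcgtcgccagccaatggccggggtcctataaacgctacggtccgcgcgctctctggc
PGK1 (chrX:78103998-78104247, plus strand): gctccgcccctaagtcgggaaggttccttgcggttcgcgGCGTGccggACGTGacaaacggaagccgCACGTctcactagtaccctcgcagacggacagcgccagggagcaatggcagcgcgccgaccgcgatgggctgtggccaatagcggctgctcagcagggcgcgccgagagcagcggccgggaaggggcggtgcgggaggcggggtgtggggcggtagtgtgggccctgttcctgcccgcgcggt
LDHA (chr11:18394313-18394562, plus strand): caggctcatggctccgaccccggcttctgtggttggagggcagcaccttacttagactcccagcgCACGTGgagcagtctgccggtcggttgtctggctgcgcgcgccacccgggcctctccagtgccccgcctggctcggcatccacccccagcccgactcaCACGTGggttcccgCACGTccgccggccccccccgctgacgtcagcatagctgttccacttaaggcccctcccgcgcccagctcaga
ENO2 (chr12:6914330-6914579, plus strand): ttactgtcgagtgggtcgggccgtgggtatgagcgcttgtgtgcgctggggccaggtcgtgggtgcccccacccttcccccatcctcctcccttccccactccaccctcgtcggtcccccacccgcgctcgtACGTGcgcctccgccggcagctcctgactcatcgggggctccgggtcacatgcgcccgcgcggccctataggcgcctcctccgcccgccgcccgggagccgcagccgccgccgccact
BNIP3 (chr10:131981924-131982173, minus strand): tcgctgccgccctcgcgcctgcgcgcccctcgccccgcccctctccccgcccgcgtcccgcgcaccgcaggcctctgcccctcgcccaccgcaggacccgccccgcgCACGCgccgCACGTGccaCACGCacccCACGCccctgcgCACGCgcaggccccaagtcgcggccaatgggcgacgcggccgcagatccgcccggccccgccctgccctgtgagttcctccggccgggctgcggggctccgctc
ANKRD37 (chr4:185396591-185396840, plus strand): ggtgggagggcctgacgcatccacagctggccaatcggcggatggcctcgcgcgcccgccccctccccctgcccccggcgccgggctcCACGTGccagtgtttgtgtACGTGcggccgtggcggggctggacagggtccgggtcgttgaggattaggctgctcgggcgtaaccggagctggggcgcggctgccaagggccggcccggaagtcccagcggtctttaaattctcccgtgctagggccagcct

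The window of HK2 held 3 cores, that of P4HA1 1 and that of SLC2A1 0. PGK1 held 3 and LDHA 5, and ENO2 held 1. BNIP3, with 6, and ANKRD37, with 3, were among the windows with several. Over the 30 windows, 18 (60.0%) held at least 1 of the cores, against 43.1% of 27305 windows of the same length, 1 per gene. ACGTG was in 13 (43.3%, against 18.7% of all), GCGTG in 10 (33.3%, against 31.9%) and CACGTG in 4 (13.3%, against 6.5%). Among the 28 of these genes with a measured signal, the 17 with a core had a median of 0.07 (log2, stable Set8b against vector), from -0.48 to 1.22. The 11 without a core had a median of 0.24, from -0.11 to 0.98, so the ranges overlapped. These are letters in a window, and whether HIF binds there in these cells was not measured.

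A few facts of the arrays bear on all values. The median signal was 38.6 (vector), 42.8 (wild type) and 41.7 (stable Set8b). Hybridisation spike-ins on the stable Set8b array had a median ratio to vector of 0.796, and poly-A spike-ins were at 0.467 and 0.441 with stable and wild-type Set8b. The ratio of 3′ to 5′ signal for GAPDH control probe sets ranged from 1.02 to 1.12, and that for ACTB was far from even, at 7.995 (vector), 7.56 (wild type) and 7.33 (stable Set8b). KMT5A, the gene of Set8b, was higher than vector with both constructs in 3 of its 4 probe sets. These lay between 0.12 and 0.90 with stable and between 0.18 and 1.23 with wild-type Set8b. Its brightest was at -0.76 with stable and 0.31 with wild-type Set8b. The probe sets thus disagreed for stable Set8b, and by themselves they do not check the labels. CDKN1A, which encodes the cell cycle inhibitor p21, was at 2.65 log2 with stable Set8b and 0.85 with wild-type. Of 8 markers of mesenchymal and osteosarcoma cells, 6 passed the filter, with VIM at 12787 and RUNX2 at 831 on the vector array, while COL1A2 and TWIST1 stayed under a signal of 50 on every array. With stable Set8b over vector, the cadherins CDH11 and CDH2 were at 1.29 and 0.75, and RUNX2 was at -0.62 by its brightest probe set, with others up to 0.70. Of the markers of other cell types, 3 of 5 epithelial, 1 of 3 measured leukocyte and 2 of 3 endothelial ones passed the filter. KRT8 and KRT18 were at 3450 and 4797 on the vector array, and EPCAM was at -1.35 log2 with stable Set8b. The T cell gene CD3D read 107 (vector), 75.9 (wild type) and 200 (stable Set8b), at 0.90 over vector, while PTPRC and CD14 stayed under 50 on every array. The endothelial gene PECAM1 read 74.9, 122 and 173, at 1.21, VWF was at -0.44, and CDH5 stayed under 50. The part of these shifts in the results below was not tested.

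Genes of glucose entry read higher with stable Set8b than with the empty vector, while the enzymes between glucose 6-phosphate and pyruvate differed little. All 4 genes of glucose entry were at least 1.5-fold higher, with a median log2 difference of 1.03, against 0.16 for the 12 core enzymes and -0.009 for all 11783 genes. HIF targets outside glycolysis had a median of 0.21 and went both ways. Over the 33 measured genes, 3 (SLC2A3, HK2 and P4HA1) were at least 2-fold higher, 9.09%, where 5.23% of all genes were. None was at least 2-fold lower, where 4.81% of all genes were. At 1.5-fold, 8 (24.2%) were higher and 2 (6.06%) lower, against 13.6% and 14% of all genes. The 8 include EGLN3, which passed the filter only through its stable Set8b signal. Over all genes the 2-fold split was 616 higher to 567 lower, and 503 to 717 with arrays centred on their medians. Scaling also moved genes across 2-fold, since SLC2A1 was at 1.00 with values as deposited and only HK2 of the 33 was past 2-fold after median centring. Without the glucose entry group the median of the other 29 was 0.07. With 1 array per construct there is no test, and whether any difference would return in another culture was not measured. RNA of whole cultures was measured, so a change in the share of cells in a given state and a change per cell cannot be told apart.

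**Figure D1:**
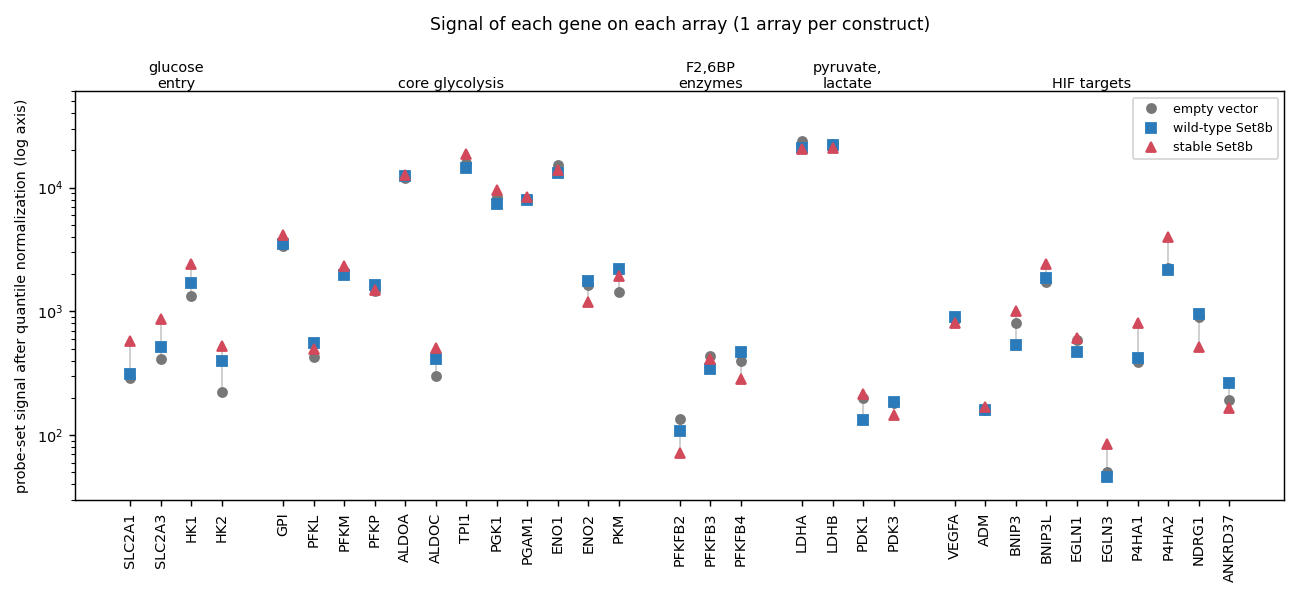
Signal of the 33 measured genes (log axis, after quantile normalization) on the vector (circles), wild-type Set8b (squares) and stable Set8b (triangles) arrays, 1 array each, by role. In glucose entry the triangle lies above the other markers for 4 of 4 genes. Levels of different probe sets are not comparable with each other.

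SLC2A1 encodes GLUT1, the carrier behind basal glucose uptake in most cells. Its signal was 292 (vector), 313 (wild type) and 577 (stable Set8b). The stable Set8b array stood alone, 1.97-fold above vector, while the other arrays differed by 0.10 log2. SLC2A3 encodes GLUT3, a carrier of high affinity best known from neurons. It read 411 (vector), 514 (wild type) and 873 (stable Set8b), 2.12-fold above vector. Its 3 probe sets past the filter lay between 0.71 and 1.09 log2, so all were higher, although not all by 2-fold.

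HK1 encodes the hexokinase found in nearly all tissues. Its signal was 1322 (vector), 1694 (wild type) and 2398 (stable Set8b), and the last lay 0.86 log2 above vector. HK2, the inducible hexokinase of muscle, fat and many tumours, read 225 (vector), 395 (wild type) and 524 (stable Set8b), 2.33-fold above vector. By these probe sets both hexokinases had vector lowest and stable Set8b highest. The other HK2 probe sets past the filter gave 0.66 and 0.73 for stable Set8b over vector. For wild-type Set8b over vector they gave -0.48 and -0.56 against 0.81 by the brightest, so the direction of HK2 with wild-type Set8b was not settled.

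By their brightest probe sets, all 4 genes of glucose entry had vector lowest, wild-type in the middle and stable Set8b highest, an order found the same way in 10 of the 33 genes (30.3%) and in 20.5% of all genes. The other 2 probe sets of HK2 had wild type lowest, and 1 of the 3 of SLC2A3 had it highest, at 172 (vector), 287 (wild type) and 281 (stable Set8b). Centred on array medians, SLC2A1 with wild-type Set8b turned to -0.04, and the other genes of the group kept their side of 0 over vector. Among all 11783 genes, the differences of SLC2A1, SLC2A3, HK1 and HK2 for stable Set8b over vector lay at percentiles 94.6, 95.7, 92.7 and 96.8. Other carriers did not share this direction as a group. They were listed with accessory proteins of the monocarboxylate carriers, 16 genes in all. Of these 8 passed the filter, 2 above and 6 below 0, with a median of -0.31. Past 2-fold were 0, where 5.23% of all genes were higher and 4.81% lower. SLC2A10 was at -0.68, SLC2A12 at -0.45 and SLC2A8 at 0.44.

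Below hexokinase, 10 of the 12 core enzymes lay above 0 with stable Set8b over vector and 2 below, with 0 past 2-fold. Of all 11783 genes, 5809 lay above 0 and 5966 below, and 5.23% were at least 2-fold higher and 4.81% lower. The core median depends on the scaling, since it was 0.06 with values as deposited and -0.04 with arrays centred on their medians. The sign count does too, since PFKP, ALDOA, TPI1, PGK1 and PGAM1 fell below 0 with median centring. GPI, which turns glucose 6-phosphate into fructose 6-phosphate, read 3379 (vector), 3498 (wild type) and 4168 (stable Set8b), 0.30 above vector. Of the phosphofructokinase subunits, the liver form PFKL was at 0.22, the muscle form PFKM at 0.12 and the platelet form PFKP at 0.03. The last turned to -0.09 with arrays centred on their medians. All 3 subunits differed from vector by less than the spread between probe sets of a gene, an SD of 0.39 log2 over 5357 genes, which covers probe noise and not cultures.

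ALDOC, the brain form of aldolase, stood apart among the core enzymes. It read 301 (vector), 411 (wild type) and 511 (stable Set8b), 1.69-fold above vector. Its paralogue ALDOA, the aldolase of muscle and most other cells, read 11982, 12363 and 12587 in the same order of arrays. The ALDOA differences were 0.07 and 0.05 over vector, and the former turned to -0.11 with values as deposited. Of the triose steps, TPI1 (triose phosphate isomerase) was at 0.24, PGK1 (phosphoglycerate kinase, the earlier of the ATP-yielding steps) at 0.19 and PGAM1 (phosphoglycerate mutase) at 0.05 with stable Set8b over vector. All 3 turned below 0 with arrays centred on their medians. The 4 probe sets of PGK1 ranged from -0.06 to 0.43. Several of these enzymes have processed pseudogenes of near-identical sequence, and 18 of the 33 genes were read by a probe set ending in _x_at or _s_at, which can also read related transcripts.

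The enolases were the 2 core enzymes below 0. ENO1, the enolase of most tissues, read 15096 (vector), 13169 (wild type) and 13816 (stable Set8b), and its 3 probe sets lay between -0.41 and -0.13 for stable Set8b over vector. ENO2, the neuronal enolase and a HIF target, read 1647, 1771 and 1184, and so was lowest with stable Set8b at -0.48. PKM, pyruvate kinase, was highest on the wild-type array, at 1424 (vector), 2211 (wild type) and 1928 (stable Set8b). Its other probe set was at 0.15 with stable and 0.02 with wild-type Set8b, against 0.44 and 0.63 by the brightest. GAPDH, a glycolytic enzyme outside the list, was at -0.11 with stable and 0.13 with wild-type Set8b. Of 14 further genes listed as glycolysis enzymes, GAPDH among them, 6 passed the filter with a median of -0.03 and 0 past 2-fold. ENO3, the muscle enolase, was the lowest at -0.83. The 6 include PGAM5, at 0.24, which despite its name is a protein phosphatase and not a glycolysis enzyme.

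The enzymes that make and break fructose 2,6-bisphosphate lay on the other side of 0 from glucose entry with stable Set8b. PFKFB2, the heart form, read 136 (vector), 108 (wild type) and 72.3 (stable Set8b), 1.88-fold below vector. This was the only PFKFB2 probe set past the filter, and a dim one. Of those under the filter, 1 gave -0.05, another -0.57, and the last lay at the floor on every array. PFKFB4, a hypoxia-inducible form, read 398, 474 and 285, lowest with stable Set8b at -0.48. PFKFB3, a strongly kinase-active form found in proliferating cells, read 435, 341 and 412, so the wild-type array was lowest and stable Set8b differed from vector by -0.08. The median of the 3 was -0.48. TIGAR, a p53-inducible phosphatase of fructose 2,6-bisphosphate that is not in the list, read 1195 (vector), 1083 (wild type) and 3754 (stable Set8b), 3.14-fold above vector.

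At the end of the pathway the differences were small. LDHA, the lactate dehydrogenase subunit that favours lactate formation, read 23904 (vector), 20997 (wild type) and 20667 (stable Set8b), so stable Set8b was at -0.21. LDHB, the heart-type subunit, was at -0.11. These are among the brightest probe sets, which quantile normalization changes most. With values as deposited, LDHA was at -0.42 and LDHB at -0.34 with stable Set8b over vector, and at 0.02 and 0.18 with wild-type Set8b. The pyruvate dehydrogenase kinases, which keep pyruvate out of mitochondria, differed by array. PDK1, a HIF target, read 198 (vector), 132 (wild type) and 215 (stable Set8b), so its wild-type signal was the lowest, although its dimmer probe set was higher there by 0.36. PDK3 was at -0.31 with stable Set8b, and its 3 probe sets ranged from -0.31 to 0.43.

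**Figure D2:**
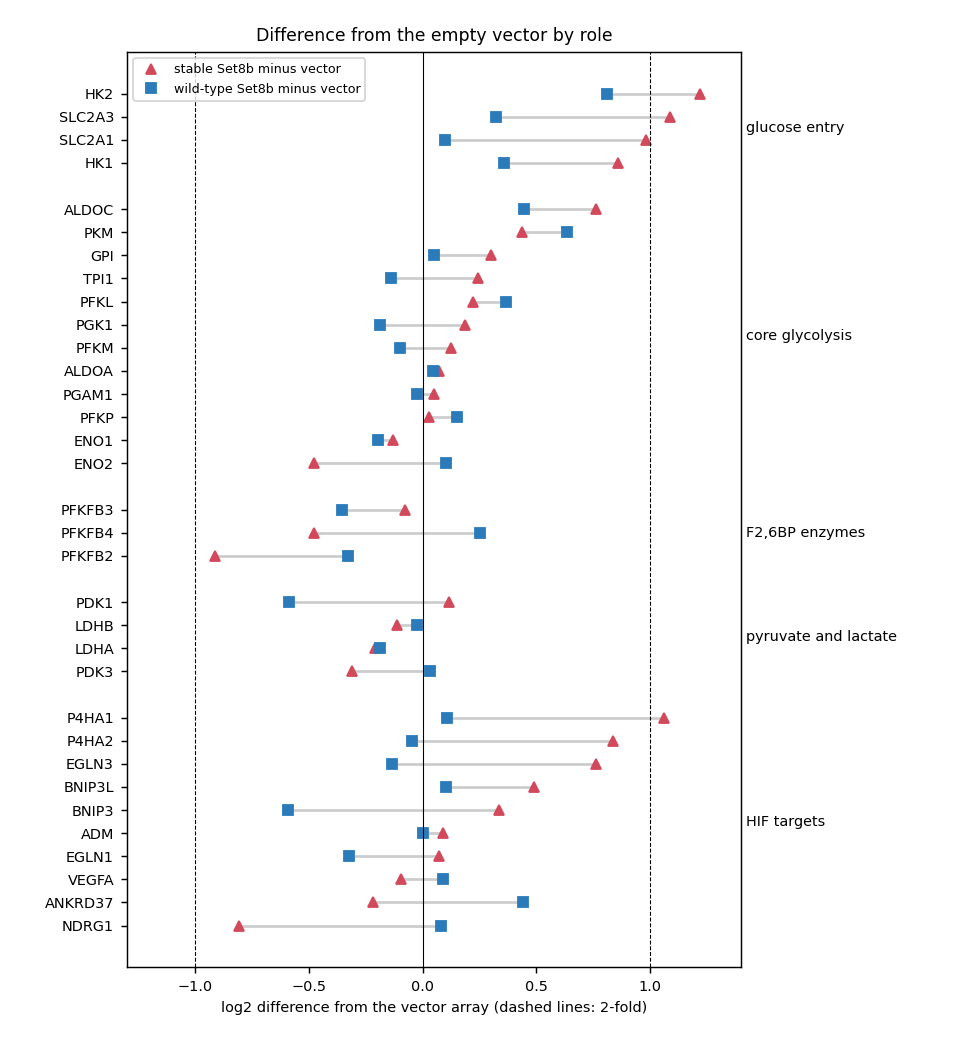
Log2 difference from the vector array for stable Set8b (triangles) and wild-type Set8b (squares), by role and ordered by the former. Dashed lines mark 2-fold. SLC2A3, HK2 and P4HA1 are the only triangles of the 33 past the upper line, and no marker lies past the lower line. Both series use the same vector array.

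HIF targets outside glycolysis did not move as a group. Of 10 measured, 7 lay above 0 with stable Set8b over vector and 3 below, and 1 was past 2-fold. Of all 11783 genes, 5809 lay above 0 and 5966 below, and 5.23% were at least 2-fold higher and 4.81% lower. EGLN1, among the 7, turned to -0.03 with arrays centred on their medians. The higher HIF targets were led by the prolyl 4-hydroxylase alpha subunits, which hydroxylate collagen so that its triple helix is stable. P4HA1 read 387 (vector), 417 (wild type) and 807 (stable Set8b), 2.09-fold above vector. P4HA2 read 2229, 2157 and 3986, so vector and wild-type were close and stable Set8b was 1.79-fold above vector. The dimmer P4HA2 probe set was at -0.07, and the mean over both was 0.39, so the P4HA2 difference rests on its brightest probe set.

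The oxygen sensors differed between paralogues. EGLN3, a prolyl hydroxylase strongly induced by HIF, read 50.3 (vector), 45.8 (wild type) and 85.2 (stable Set8b). Vector and wild type lay under the filter level of 51.4, so EGLN3 passed the filter only through its stable Set8b signal. Its place in the counts of higher genes was therefore partly set by the filter. Its differences of 0.76 from vector and 0.90 from wild-type rest on a dim signal, and the latter was 0.77 with a floor at 50. The other EGLN3 probe set, under the filter, was at 0.31 over vector. EGLN1, the main sensor in normal oxygen, read 585, 468 and 615, at 0.07 with stable and -0.32 with wild-type Set8b. The mitophagy receptors BNIP3 and BNIP3L were both above vector with stable Set8b. BNIP3 read 802 (vector), 533 (wild type) and 1011 (stable Set8b), at 0.34 and -0.59 over vector. Its other probe set had the same signs, at 0.38 and -0.17. BNIP3L, also known as a p53 target, read 1728, 1856 and 2428, with its probe sets at 0.49 and 0.56 with stable Set8b.

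The other HIF targets differed little or read lower with stable Set8b. VEGFA, the growth factor of blood vessels, read 854 (vector), 908 (wild type) and 801 (stable Set8b). Its 3 probe sets ranged from -0.09 to 0.39 with stable Set8b, so no direction is given. ADM, the vasodilator adrenomedullin, read 158, 159 and 169. NDRG1, a stress and differentiation gene, read 898 (vector), 951 (wild type) and 513 (stable Set8b), 1.75-fold below vector. ANKRD37, a small HIF target, read 193, 262 and 166, at -0.22 with stable and 0.44 with wild-type Set8b. Against wild-type Set8b, NDRG1 and ANKRD37 were lower by more than the probe-set SD of 0.42 (-0.89 and -0.66). That SD covers probe noise and not cultures, and each gene had 1 probe set past the filter. In this comparison 14.4% of all genes were at least 1.5-fold lower.

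**Figure D3:**
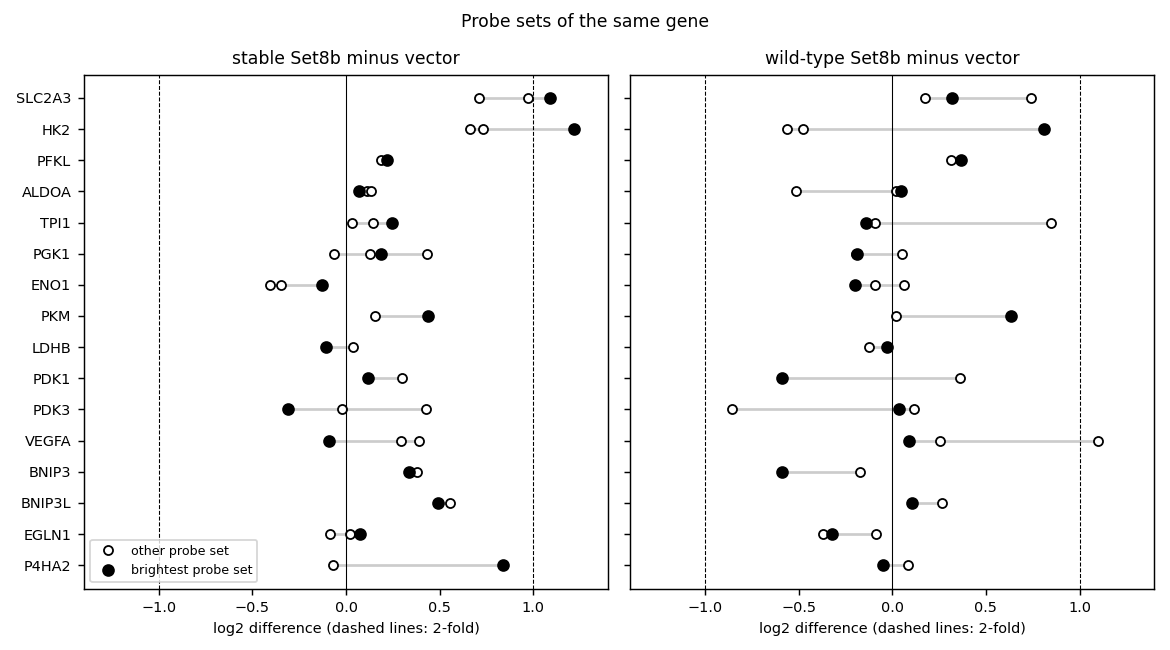
Log2 difference from vector for every probe set past the filter of the 16 genes with more than 1, for stable Set8b on the left and wild-type Set8b on the right. Filled circles are the brightest probe set, open circles the others, and dashed lines mark 2-fold. With stable Set8b all probe sets of 10 genes lay on the same side of 0, and with wild-type Set8b those of 8.

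The comparison of wild-type Set8b with the empty vector shares the vector array with the one above. No gene of the 33 was past 2-fold in either direction, where 1.02% of all genes were higher and 0.653% lower. At 1.5-fold, HK2 and PKM were higher and PDK1 and BNIP3 lower, 6.06% each way, against 5.57% and 4.11% of all genes. Medians were 0.34 for glucose entry, 0.05 for the core enzymes and 0.04 for HIF targets, against 0.009 over all genes. For 14 of the 33 genes the sign of the difference turned between quantile normalization, values as deposited and median centring. HK1, at 0.36, and ALDOC, at 0.45, had a single probe set past the filter, and both lay above 0 under each of these scalings. BNIP3 and EGLN1 lay below 0 with all of their probe sets, 2 and 3 in number.

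Setting stable against wild-type Set8b asks how the form that resists degradation differs from the degradable form. It shares the stable Set8b array with the earlier comparison. No gene of the 33 was past 2-fold, where 4.45% of all genes were higher and 4.8% lower. At 1.5-fold 7 were higher (21.2%, against 12.9% of all genes) and 3 lower (9.09%, against 14.4%). The 7 were the carriers SLC2A1 (0.88) and SLC2A3 (0.77), PDK1 (0.70), BNIP3 (0.92), EGLN3 (0.90), P4HA1 (0.95) and P4HA2 (0.89). Of these, EGLN3 passed the filter only through its stable Set8b signal. The 3 were PFKFB4 (-0.73), NDRG1 (-0.89) and ANKRD37 (-0.66). Medians were 0.63 for glucose entry, 0.07 for core enzymes and 0.39 for HIF targets. The core median was -0.08 with values as deposited, so no direction is given for it. The brightest probe set of HK2 gave 0.41 and its others 1.14 and 1.29, and 1 of the 3 probe sets of SLC2A3 gave -0.03. The dimmer probe sets of PDK1 and P4HA2 also lay below 0, at -0.06 and -0.15.

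Stable Set8b gave the highest of the 3 signals for 19 of the 33 genes (57.6%) and the lowest for 9 (27.3%), against 39.2% and 41.3% of all genes. By role the highest signal was on that array for 4 of 4 genes of glucose entry, 7 of 12 core enzymes and 7 of 10 HIF targets. It was there for 1 of 4 pyruvate and lactate genes and 0 of 3 fructose 2,6-bisphosphate enzymes. These counts hold for quantile normalized values and depend on the scaling. With arrays centred on their medians, ALDOA (-0.21), TPI1 (-0.06), PGK1 (-0.03), PGAM1 (-0.16) and EGLN1 (-0.03) fell below vector with stable Set8b. The order over all genes was not counted under that scaling.

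Branches off glycolysis were read from related lists. In glycogen and gluconeogenesis, 10 of 13 genes passed the filter, 8 above and 2 below 0 with stable Set8b over vector, with a median of 0.29 and 0 past 2-fold. PYGL, which breaks glycogen down, was at 0.81, GYS1, which builds it, at 0.77, and PGM1, which links glycogen to glucose 6-phosphate, at 0.68. PCK2, the mitochondrial enzyme that makes phosphoenolpyruvate, was at -0.45. With wild-type Set8b over vector PYGL, GYS1 and PGM1 were at 0.03, -0.04 and 0.03. The pentose phosphate pathway (8 of 9 genes) had a median of -0.04, with TALDO1, transaldolase, at -0.33 and RPE at 0.26. Genes of pyruvate use in mitochondria (13 of 14) had a median of -0.19 and 0 past 2-fold. DLAT, a subunit of pyruvate dehydrogenase, was at -0.76, and PDP1, the phosphatase that switches the complex on, at 0.54. CS, citrate synthase, was at -0.56 and PDK4 at -0.62. With wild-type Set8b over vector, DLAT (-0.38), PDP1 (0.41) and CS (-0.79) lay on the same side of 0 as with stable Set8b. PDK4 was at 0.24 with wild-type Set8b. PDK4 was dim, at 59.8 (vector) and 38.8 (stable Set8b), and its difference was -0.26 with a floor at 50.

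The HIF machinery itself was mixed with stable Set8b over vector. HIF1A, the main alpha subunit, read 6798 (vector), 6411 (wild type) and 9115 (stable Set8b), at 0.42. EPAS1, which encodes HIF-2 alpha, read 797, 807 and 1120, at 0.49. Their partner ARNT read 256, 290 and 141, at -0.86, and its 3 probe sets lay between -1.12 and -0.41. VHL was at -0.01 with stable and 0.66 with wild-type Set8b. CITED2, a HIF target that competes with HIF for its coactivators, was at 0.84 with stable and -0.94 with wild-type Set8b. Its other probe set past the filter gave 0.82 and -0.16, so the size of the wild-type difference rests on the brightest. The alpha subunits are controlled mainly at the protein level, which was not measured. Of the 17 subunits and regulators, 15 passed the filter, 5 above and 10 below 0, with a median of -0.08 and 0 past 2-fold.

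A further list of 36 HIF targets, none of them among the 36 genes, held more genes above 0 than below. GYS1 is also in the glycogen list. Of the further list 30 passed the filter, 23 above and 7 below 0 with stable Set8b over vector, with a median of 0.26. Of all 11783 genes, 5809 lay above 0 and 5966 below. At least 2-fold higher were 5 and lower 2 of the 30, where 5.23% and 4.81% of all genes were. At 1.5-fold 10 were higher and 3 lower, where 13.6% and 14% of all genes were. TMEM45A read 292 (vector), 297 (wild type) and 1056 (stable Set8b), 3.62-fold above vector. The histone demethylase KDM4B was at 1.18, with its probe sets between 0.28 and 1.18. The circadian repressor BHLHE41 was at -1.27, and CA12, a membrane carbonic anhydrase, at -1.24 with probe sets from -1.65 to -0.09. The remaining 3 past 2-fold, named after their values were seen, were BHLHE40 at 1.09, the heme oxygenase HMOX1 at 1.12 and the adenylate kinase AK4 at 1.00, whose probe sets began at -0.09.

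**Figure D4:**
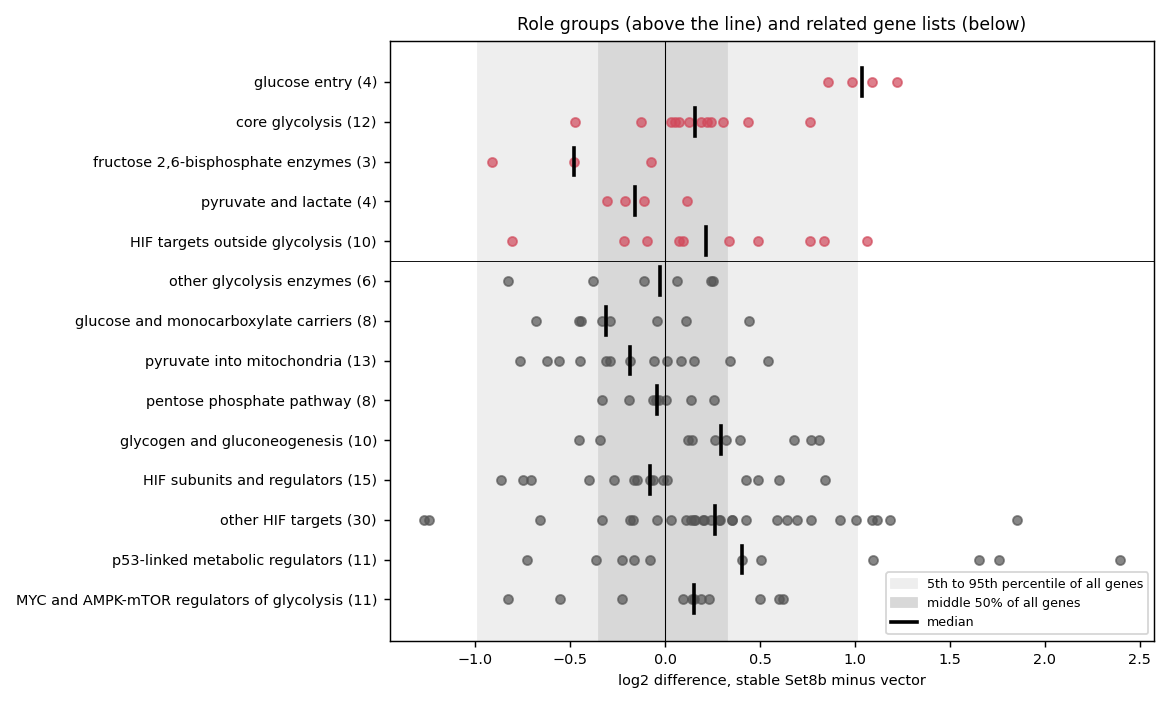
Log2 difference of stable Set8b over vector for each measured gene, by role group (above the line) and by related list (below). Black bars are medians, the dark band holds the middle 50% of all 11783 genes (-0.35 to 0.33) and the light band their 5th to 95th percentile (-0.98 to 1.01). All 4 genes of glucose entry lie right of the dark band, and the core enzymes cluster inside it with ALDOC, PKM and ENO2 outside.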

How the data were processed

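Expression was measured with Affymetrix arrays in U2OS cells, 1 array per construct and 3 in all. Per the labels' protocols, Trizol RNA was labelled with biotin. The authors deposited linear probe-set intensity values, 54675 per array, made by software not given in the sources used here. All arrays share a trimmed mean of 250.0 (2% off each end). No detection calls were used.

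Control probe sets (62) were removed. Array medians spanned 0.146 log2, above a limit of 0.1, so arrays were quantile normalized, floored at the 20th percentile (signal 7.7) and taken to log2. Of 54613 probe sets, the platform annotation gave 41091 a single symbol, 1801 more than 1 and 11721 no symbol. Of 41097 annotated entries with 1 symbol, 41043 matched RefSeq by Entrez identifier. Those with a mean at or above the median (signal 51.4) were kept, and the brightest stood for each of 11783 genes. Quantile normalization forces equal distributions and so changes the brightest genes most.

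With 1 array per group there was no test. The genes, role groups, lists and rules were chosen with earlier results of these data known. Every listed gene could be named, and from each related list the 4 largest differences of stable Set8b from vector, plus HIF1A, EPAS1, ARNT, VHL, GAPDH, TIGAR and CDKN1A. The related lists were other glycolysis enzymes (with PGAM5), other carriers with accessory proteins, mitochondrial pyruvate use, the pentose phosphate pathway, and glycogen and gluconeogenesis. Further lists were HIF subunits and regulators, other HIF targets, p53-linked metabolic regulators, and MYC and AMPK-mTOR regulators. The planned comparison of paralogous proteins was not run, since no protein sequences were used here. The steps were tested on simulated data. Alternatives were values as deposited, median centring, no floor, a floor at 50, no filter on dim signals, only the brightest 25% of probe sets, averaging the probe sets of a gene, no _x_at or _s_at probe sets, and thresholds of 1.5-fold and 3-fold. Scripts ran in Python 3.11.15 with matplotlib 3.10.9, numpy 2.4.6, scipy 1.17.1 and pandas 2.3.3.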

Additional observations from a re-analysis of the deposited data

How the results depend on the processing

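Nothing here has a replicate, so a value counted as moved where a median changed by over 0.1 log2, a single gene by over the probe-set SD, or a count by over 1.5 times. Of 132 recomputed counts and group medians 24 moved, and of 729 single-gene values 11 moved. With arrays centred on their medians, which put the median of all genes over vector at -0.119 (stable Set8b) and -0.126 (wild-type) in place of -0.0087 and 0.0089, 1 gene (HK2) was 2-fold higher with stable Set8b over vector in place of 3. Core medians were then -0.044, -0.084 and -0.044 for stable over vector, wild-type over vector and stable over wild-type Set8b, the wild-type glucose entry median was 0.19 and the wild-type HIF target median -0.10. With values as deposited, the core median of stable over wild-type Set8b was -0.082. By the mean over probe sets, 1 gene (P4HA1) was 2-fold higher with stable Set8b, and glucose entry was at 0.90 with stable and 0.23 with wild-type Set8b over vector. Without _x_at and _s_at probe sets 18 genes were left, 1 of them (HK2) 2-fold higher. Glucose entry, then 2 genes, was at 0.58 with wild-type Set8b over vector and 0.46 for stable over wild-type Set8b, and core enzymes, then 6, at 0.29, 0.30 and -0.16 in the 3 comparisons. Among the brightest 25% of probe sets the HIF target median with stable Set8b was 0.34 over 7 genes. At 1.5-fold the counts of higher and lower genes were 8 and 2 (stable Set8b over vector), 2 and 2 (wild-type over vector) and 7 and 3 (stable over wild-type Set8b). Over all genes, the 2-fold counts of 616 and 567 became 2032 and 1813 without a filter and 252 and 273 among the brightest 25%, where other numbers of genes were tested. For wild-type Set8b over vector, 120 higher and 77 lower became 91 and 129 after median centring. At 3-fold 0 were higher with stable Set8b. Fewer genes account for the count without _x_at and _s_at probe sets, and the cause of the other shifts was not tested. No paired analysis was possible because each group has 1 array.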

Other observations

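Regulators of metabolism that are tied to p53, the tumour suppressor, were listed as well. Of 14 listed, 11 passed the filter and 4 were at least 2-fold higher with stable Set8b over vector, where 5.23% of all genes were, and the median was 0.40. SESN1, a stress-induced regulator of mTORC1 signalling, read 114 (vector), 132 (wild type) and 385 (stable Set8b). Its relative SESN2 read 231, 302 and 493, and TIGAR was at 1.65. RRAD, a small GTPase, read 31.9, 63.6 and 167, at least 1.74 log2 higher with the dim vector side set to 50. The mean of its vector and wild-type signals lay under the filter level, so RRAD passed only through its stable Set8b signal. Its place among the 4 was therefore partly set by the filter. With wild-type Set8b over vector the list had a median of -0.11. In the list of MYC and AMPK-mTOR regulators, 11 of 14 passed the filter with a median of 0.15 and 0 past 2-fold. MYC was at 0.60 and RPTOR, a subunit of mTORC1, at -0.83. ESRRA was at 0.62 by its brightest probe set (0.0012 by its lowest). PRKAA2 was at -0.55 by its brightest (0.05 by its highest).

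The lysyl hydroxylases of collagen, from the further list of HIF targets and picked after their values were seen, can be set beside P4HA1 and P4HA2. PLOD2 read 1989 (vector), 1696 (wild type) and 3766 (stable Set8b), at 0.92 over vector, and PLOD1 read 1104, 1306 and 1412, at 0.35.

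A pair of probe sets is annotated to SLC2A3 and SLC2A14 together and stood outside the comparisons. For stable Set8b over vector they gave 0.13 and 0.83, against 0.71 to 1.09 for the probe sets of SLC2A3 alone.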
